A study of Mus musculus with 12 samples.

Results

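The comparison set 3 arrays of selenium-deficient proerythroblasts against 3 arrays of selenium-adequate basophilic erythroblasts, chosen by their titles out of 12 arrays in 4 groups of 3. The mice were male and had been fed for 3 months on food either adequate or deficient in selenium. Phenylhydrazine, which lyses red cells, made them anaemic, and both cell types were isolated from spleen by flow sorting on day 3. The groups differ in diet and in stage at once, which cannot be told apart in a direct comparison of them. The question was which genes that separate the stages on the adequate diet had already reached the basophilic level in deficient proerythroblasts, and which had not. Adequate proerythroblasts gave the starting level of each gene. Deficient basophilic erythroblasts entered only the signal filter, the choice of feature for each gene and the estimate of the spread. All 4 groups received phenylhydrazine. The strain and age of the mice, the selenium content of the diets, the sorting gates and any pooling of mice were not given in the sources used here. Nothing in the labels says that the 3 replicates of a group came from separate mice, so the p-values measure the spread between these samples, which may be technical.

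Proerythroblasts are the first recognisable red cell precursors. They are large, divide rapidly, carry the stem cell factor receptor Kit and make ribosomes in quantity. Basophilic erythroblasts are the next stage: they lower Kit, Myb and ribosome production, and raise heme synthesis, globin, the membrane skeleton and the machinery that later clears mitochondria and other organelles. After acute anaemia the mouse spleen hosts a wave of such cells, called stress erythropoiesis. Selenium is built into selenoproteins as selenocysteine, and several of these enzymes remove peroxides.

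Total RNA, 5 ng per sample, was labelled and hybridised to Affymetrix whole-transcript arrays, and the deposited log2 values were used as they were. In such bulk samples, fewer cells of a type and less RNA per cell cannot be told apart. The 4 groups did not share one signal distribution. The median of the array's own background controls was 3.31 to 3.47 on the log2 scale in deficient proerythroblasts and 3.63 to 4.19 in adequate basophilic erythroblasts, and the interquartile range over all features was 2.50 to 2.57 against 2.18 to 2.41. Replicate 2 of both basophilic groups stood apart. Adequate basophilic replicate 2 correlated with its group's other arrays at r = 0.951 and 0.963, against 0.991 between those, and deficient basophilic replicate 2 at 0.870 and 0.862. One label conflicts: deficient basophilic replicate 3 is basophilic by its title and a proerythroblast sample by its description. Of the 30702 named genes, 20128 passed a filter on dim signals, a value above 5.30 in at least 3 arrays, and were tested.

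The labelled cell types were checked against their markers. Of 10 erythroid markers, 8 were measured, and their summed log2 level was 12.89 to 13.22 in adequate proerythroblasts, 13.97 to 14.05 in deficient proerythroblasts and 14.54 to 14.65 in adequate basophilic erythroblasts. These ranges did not overlap, and the sum of deficient proerythroblasts lay in the middle. It adds unlogged levels, so bright members such as Slc4a1 and Alas2, stage genes described below, weighed most. By gene, the means of Slc4a1, Alas2, Hbq1a, Tfrc, Gata1 and Kit lay between those of the adequate groups. Those of Epor (9.99 against 10.09) and Klf1 (9.92 against 10.03) were under the adequate proerythroblast mean. The major adult alpha and beta globins were not analysed here. Neutrophil markers also moved with the groups. The summed log2 level of the 18 neutrophil markers was 11.49 to 12.54 in deficient proerythroblasts, 10.37 to 10.61 in adequate basophilic and 11.03 to 12.70 in adequate proerythroblasts, and none of the 18 was at 0 because the arrays give every feature a background signal.

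Deficient proerythroblasts were still far from adequate basophilic erythroblasts. In limma's moderated test with Benjamini-Hochberg adjustment at 0.05, 7258 of 20128 genes differed, or 36.1%: 3859 (19.2%) were higher in deficient proerythroblasts and 3399 (16.9%) lower. The median difference over all tested genes was -0.07 on the log2 scale. The 3 arrays of one group did not overlap the 3 of the other for 13555 genes (67.3%), and 10746 genes had an unadjusted p under 0.05. The split between higher and lower depended on scaling. Of the called genes, 53.2% were higher with the values as deposited, 38.2% after centring each array on its median and 60% after quantile normalization. Genes called lower were dim, with a median level of 5.99 in deficient proerythroblasts and 6.55 in adequate basophilic erythroblasts, and 17.9% of them had a deficient proerythroblast mean below the filter value. Genes called higher had medians of 8.02 and 7.04. The array background was higher in the basophilic group, as given above, and its part in the calls of dim genes was not tested. Without adequate basophilic replicate 2 the count was 2923, with 69.5% higher, and without replicate 2 of both basophilic groups it was 11930, with 43.6% higher.

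Stage genes were those that differed between adequate basophilic erythroblasts and adequate proerythroblasts: 10910 genes (54.2%), of which 5767 (28.7% of all tested) rose with stage and 5143 (25.6%) fell. The arrays of these 2 groups did not overlap for 14887 genes (74%). Of these stage genes, 6580 (60.3%) also differed between deficient proerythroblasts and adequate basophilic erythroblasts, a share read against nothing because both comparisons use the same adequate basophilic arrays. The adequate proerythroblast arrays are likewise shared by the stage and diet comparisons. Deficient and adequate proerythroblasts differed at 810 genes (4.02%), 255 (1.27%) higher and 555 (2.76%) lower on the deficient diet. With the replicate number as a block, which the proerythroblast arrays bear out, these were 346 and 754. Each stage gene was then placed by its level in deficient proerythroblasts. A gene was at the basophilic level when the diet difference was called in the stage direction, the difference from adequate basophilic cells was not called, and its 95% interval lay within 1 log2 unit on either side of 0.

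By this rule 313 stage genes were at the basophilic level in deficient proerythroblasts, 68 of those that rise with stage and 245 of those that fall. Another 390 lay between both levels, 125 rising and 265 falling, with both differences called. The largest placed group, 5594 genes, was at the adequate proerythroblast level, 2853 rising and 2741 falling. Only 7 genes were past the basophilic level and 3 had moved away from it, against 17 and 10 with the replicate block. The remaining 4603 met none of these rules and could not be placed. Without replicate 2 of both basophilic groups the counts were 1006 at the basophilic level, 1439 between, 55 past and 8981 at the adequate proerythroblast level. With a margin of 0.58 in place of 1, 185 were at the basophilic level and 3637 at the adequate proerythroblast level. An interval within the margin bounds a difference and does not show that the levels were equal. For stage genes with a small effect, such as Bcam (0.54) and Bmp4 (0.53), the margin of 1 was wider than the whole stage change. Their placement at the adequate proerythroblast level does not show that they had made no part of that change.

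**Figure D1:**
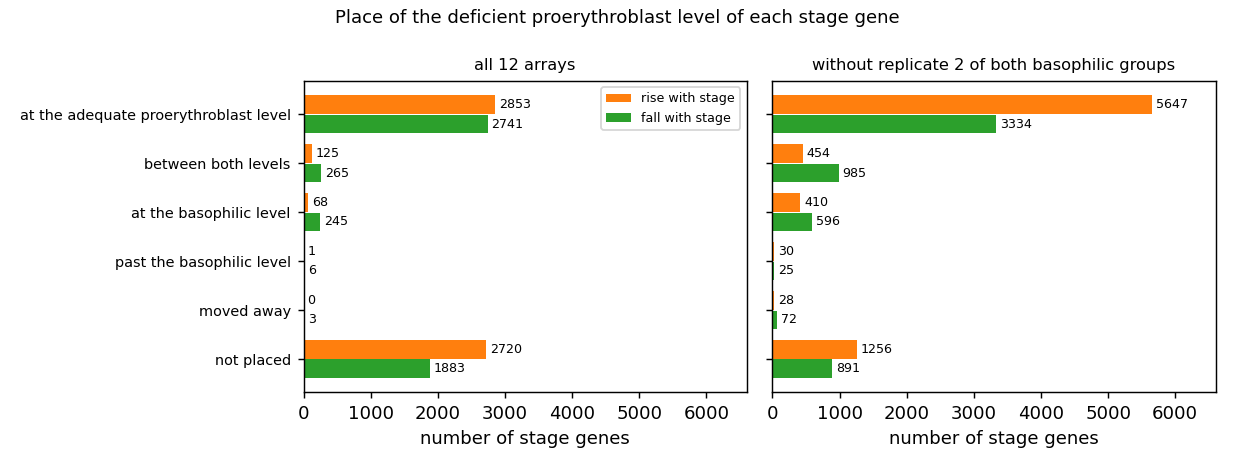
Number of stage genes (horizontal axis) in each placement of the deficient proerythroblast level, for genes that rise (orange) or fall (green) with stage on the adequate diet, with all 12 arrays (left) and without replicate 2 of both basophilic groups (right). In both panels most placed genes are at the adequate proerythroblast level, 2853 rising and 2741 falling with all arrays, and the counts at or between the levels grow to 1006 and 1439 genes on the right.

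Several stem and progenitor regulators had made part of their fall. Here and below, log2 levels are given by array for deficient proerythroblasts against adequate basophilic erythroblasts, and a difference is the former minus the latter on the log2 scale. Kit, the receptor for stem cell factor, read 6.76, 6.88 and 7.12 in the 3 deficient proerythroblast arrays and 6.17, 6.40 and 6.45 in the 3 adequate basophilic arrays, while adequate proerythroblasts averaged 9.10 ± 0.21 (SD, n = 3). Every deficient array was above every adequate basophilic array, and the whole difference was small beside the fall between stages. It was 0.58 (SE 0.16, adjusted p = 0.0218) against a stage effect of -2.76. The call for Kit was lost without adequate basophilic replicate 1 or 2 or deficient proerythroblast replicate 3, with an adjusted p of 0.0506 without adequate basophilic replicate 2 and 0.0020 to 0.0915 over 23 alternatives.

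Myb, a transcription factor that keeps progenitors dividing, read 7.09, 6.74 and 7.25 in deficient proerythroblast arrays and 5.62, 5.85 and 5.72 in adequate basophilic cells, against a mean of 9.08 in adequate proerythroblasts. Its difference from the basophilic level was 1.3 (SE 0.19, adjusted p = 0.000684), and the groups did not overlap. Cdk6, a G1 kinase of progenitors, stood further off, at 8.28, 8.48 and 8.68 against 6.22, 6.29 and 6.61, a difference of 2.11 (SE 0.20, adjusted p = 7.05e-05) within a stage effect of -3.47. Kit, Myb and Cdk6 were all placed between both levels. Bmi1, a Polycomb subunit, had not left the proerythroblast level, with a mean of 7.86 against 6.41 in adequate basophilic cells and 8.08 in adequate proerythroblasts. Myc, the growth regulator, averaged 8.20 against 7.09 and could not be placed. Over the 17 tested progenitor genes, these 5 (29.4%) were higher in deficient proerythroblasts, beside 19.2% over all genes. Lower were 2 (11.8%, beside 16.9%), Lmo2 and Mycn, and the median difference was 0.22 against -0.07 over all genes. Sox4 was the member at the basophilic level.

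The master regulators of the erythroid programme did not pass the test between the groups. Gata1 read 8.72, 8.53 and 8.66 in deficient proerythroblast arrays and 9.04, 8.64 and 9.07 in adequate basophilic cells, and the arrays overlapped. Its difference was -0.28, with a 95% interval of -0.70 to 0.14 (adjusted p = 0.24). Gata2 (-0.28, interval -0.72 to 0.17), Klf1 (-0.48, -1.21 to 0.25) and Tal1 (-0.35, -0.93 to 0.22) were not called either, although the Gata2 arrays did not overlap. None of the 4 was a stage gene. Adequate basophilic replicate 2 was the lowest of its group for Gata1, Klf1 and Tal1. Without replicate 2 of both basophilic groups these 3 were called lower in deficient proerythroblasts, with adjusted p of 0.00912, 0.0163 and 0.00888. Their adjusted p over the alternatives ran from 0.00143 to 0.468 for Gata1, 0.0163 to 0.58 for Klf1 and 0.00888 to 0.535 for Tal1.

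Several other erythroid regulators were still low. Foxo3, a transcription factor of late erythroid maturation, read 9.13, 8.71 and 8.95 against 10.23, 10.07 and 10.29, a difference of -1.27 (SE 0.15, adjusted p = 0.000205), and was placed at the proerythroblast level. Lmo2, a bridging protein of the Gata1 complex, differed by -1.15 (adjusted p = 0.000761), and the small Maf proteins Mafg and Mafk, partners of the p45 factor Nfe2, by -0.90 and -0.81. All 3 were also at the proerythroblast level. Cbfa2t3, a corepressor of that complex, averaged 6.97 in deficient proerythroblasts, under both adequate proerythroblasts (7.51) and adequate basophilic cells (7.82). Of the 22 tested erythroid regulators, 7 were lower in deficient proerythroblasts and 1 higher, Bcl11a, the repressor of embryonic globin, at 8.02 against 6.87. Quantile normalization gave 13 lower and none higher, and the fit without replicate 2 of both basophilic groups 15 lower and 2 higher.

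**Figure D2:**
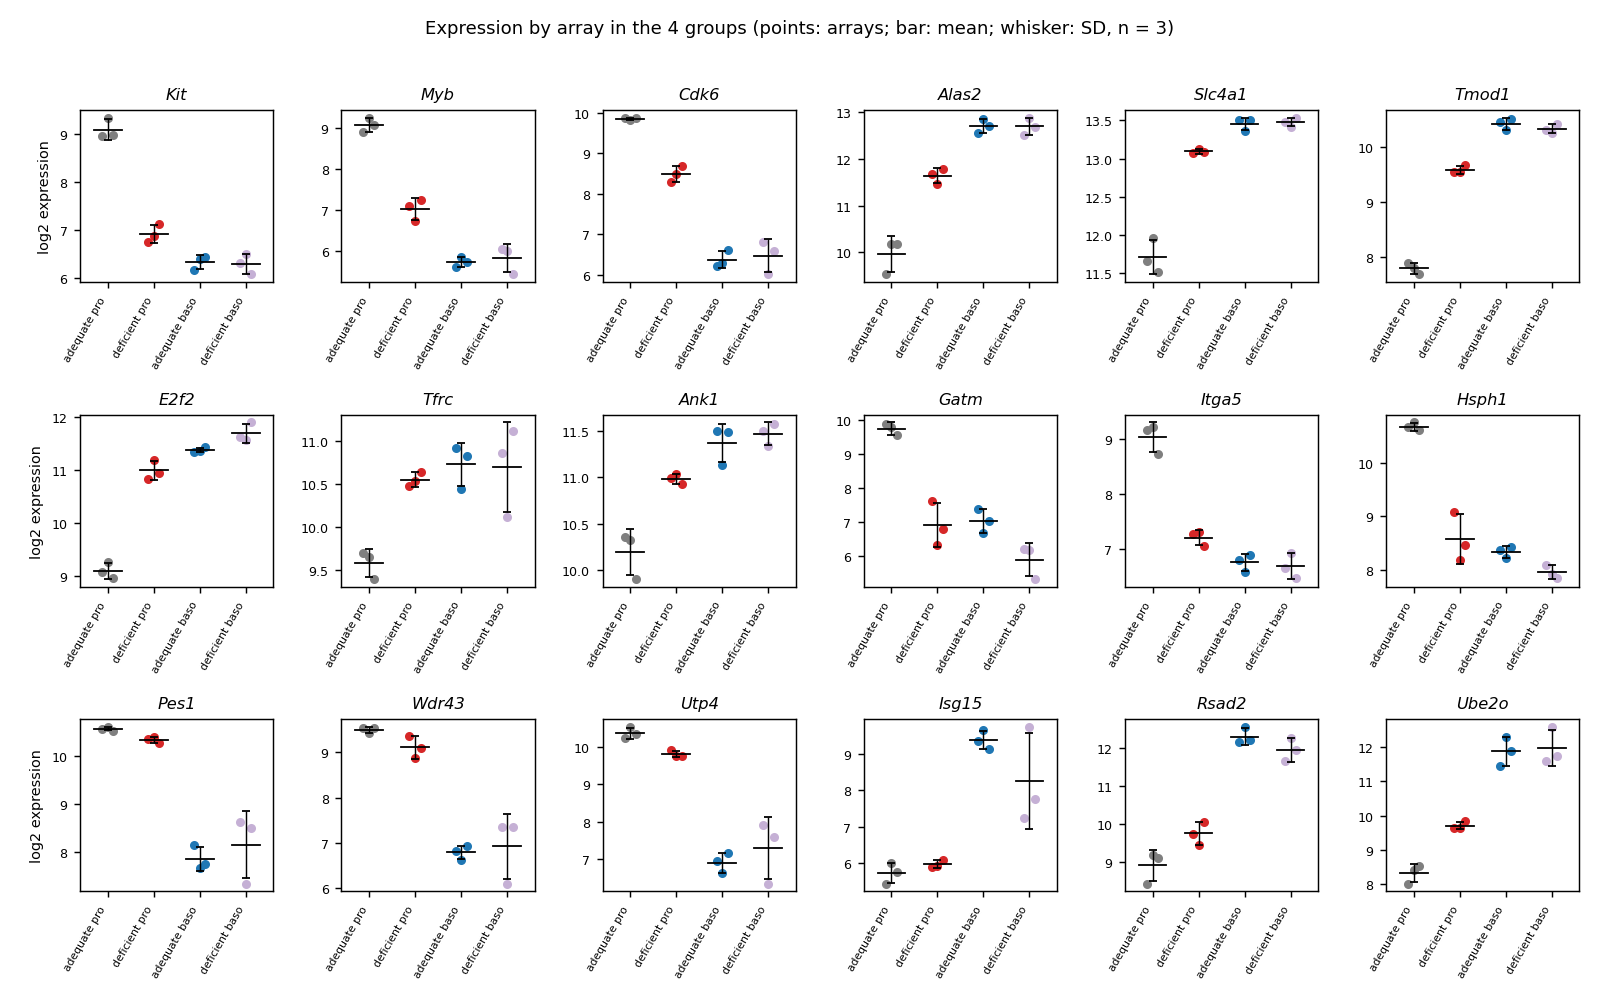
log2 expression (vertical axis, scaled per gene) of 18 genes in each array of the 4 groups, with adequate proerythroblasts in grey, deficient proerythroblasts in red, adequate basophilic erythroblasts in blue and deficient basophilic erythroblasts in violet. Bars are means and whiskers SD (n = 3). The red points of Kit, Myb, Cdk6, Alas2, Slc4a1 and Tmod1 lie between the grey and blue points, those of Gatm and Tfrc overlap the blue, and those of Pes1, Wdr43 and Isg15 lie beside the grey.

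Several heme synthesis genes had made part of their rise. Alas2, the erythroid form of the enzyme that opens the pathway, read 11.67, 11.47 and 11.78 in deficient proerythroblast arrays and 12.55, 12.85 and 12.70 in adequate basophilic cells, from a mean of 9.97 ± 0.38 (SD, n = 3) in adequate proerythroblasts. The groups did not overlap, and the remaining difference was -1.06 (SE 0.19, adjusted p = 0.00208) after a diet difference of 1.67 in the stage direction. Fech, which inserts iron into the ring in the last step, read 12.09, 12.08 and 12.14 against 12.60, 12.84 and 12.71 and differed by -0.61 (adjusted p = 0.0106). Slc25a37, the mitoferrin that brings iron into mitochondria, read 12.09, 11.96 and 12.19 against 12.81, 12.94 and 12.86 and differed by -0.79 (adjusted p = 0.000847). In each of these 3 genes every deficient array was under every adequate basophilic array.

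Urod, a middle enzyme of the pathway, and Slc25a39, a mitochondrial glutathione carrier, were likewise between both levels, with differences of -0.67 and -1.20. Of 17 tested heme synthesis genes, 7 were lower than in adequate basophilic cells and 1 was higher, with a median of -0.55. None was at the basophilic level, 5 were between, 3 at the proerythroblast level and 3 not placed. The higher gene was Flvcr1, a transporter first described as a heme exporter, which falls with stage and averaged 8.16 against 7.04 (difference 1.12, adjusted p = 0.000687).

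Among the globins with a feature of their own, all 6 tested were lower in deficient proerythroblasts, with a median of -1.12. Hbq1a and Hbq1b, a near-identical pair of theta globin genes whose signals may be shared, had made most of their rise. Hbq1a read 9.60, 9.09 and 9.52 against 10.68, 10.90 and 10.75, from a mean of 7.21 in adequate proerythroblasts, and differed by -1.37 (SE 0.15, adjusted p = 0.000132). Hbq1b differed by -1.36 (adjusted p = 0.000204). The embryonic genes were dim. Hbb-bh1 averaged 4.97 against 6.16, Hbb-bh2 5.50 against 6.09 and Hba-x 5.76 against 6.41, close to the filter value, and the array background was higher in the basophilic arrays too. Without adequate basophilic replicate 2, 3 of the 6 stayed called.

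The membrane skeleton divided into genes near the basophilic level and genes short of it. Slc4a1, the anion exchanger band 3, read 13.07, 13.13 and 13.08 against 13.50, 13.36 and 13.50, and Ank1, the ankyrin that ties band 3 to spectrin, 10.99, 11.04 and 10.93 against 11.50, 11.14 and 11.49. Neither pair of groups overlapped. Both differences were close to the threshold: -0.36 (interval -0.64 to -0.08, adjusted p = 0.0477) placed Slc4a1 between both levels, and -0.39 (-0.73 to -0.05, adjusted p = 0.0625) placed Ank1 at the basophilic level. The Slc4a1 call was lost when any single array of the compared groups was left out and kept under 13 of 23 alternatives, with adjusted p from 0.00774 to 0.123, and the lack of a call for Ank1 under 17, from 0.0081 to 0.159. These 2 genes are therefore not shown to differ in their placement.

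Tmod1, the tropomodulin that caps short actin filaments, read 9.54, 9.54 and 9.67 against 10.45, 10.30 and 10.51, from a mean of 7.80, and differed by -0.84 (SE 0.12, adjusted p = 0.000521). Epb42 (-1.16), which stabilises the band 3 complex, and the spectrin gene Sptb (-0.67) were also between both levels. Tpm1, the tropomyosin on those filaments, was still at the proerythroblast level at 8.59 against 9.41. Mpp1, a palmitoylated membrane scaffold, had the largest difference of the list named here, -1.51 (adjusted p = 0.00105). Of 20 tested membrane genes 8 were lower and none higher, with a median of -0.38. Quantile normalization gave 13 lower, and the fit without replicate 2 of both basophilic groups gave 17.

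The 250 bases before the RefSeq start of 4 of these genes are shown because they stand for different placements: Alas2 and Tmod1 rise with stage and were between both levels, E2f2 rises and was at the basophilic level, and Kit falls and was between. Capitals mark matches on either strand to AGATAA, the letters preferred by Gata1, and CCNCNCCC, those preferred by Klf1, from RefSeq GRCm38.p6, each 5′ to 3′ on the strand of the gene. Alas2 lies at chrX:150547167-150547416 (+), Tmod1 at chr4:46038972-46039221 (+), E2f2 at chr4:136172024-136172273 (+) and Kit at chr5:75574737-75574986 (+).
Alas2: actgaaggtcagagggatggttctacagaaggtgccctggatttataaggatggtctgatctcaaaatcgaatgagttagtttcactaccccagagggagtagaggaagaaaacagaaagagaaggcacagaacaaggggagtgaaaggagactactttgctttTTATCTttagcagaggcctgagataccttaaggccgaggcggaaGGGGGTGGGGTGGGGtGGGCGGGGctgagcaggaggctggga
Tmod1: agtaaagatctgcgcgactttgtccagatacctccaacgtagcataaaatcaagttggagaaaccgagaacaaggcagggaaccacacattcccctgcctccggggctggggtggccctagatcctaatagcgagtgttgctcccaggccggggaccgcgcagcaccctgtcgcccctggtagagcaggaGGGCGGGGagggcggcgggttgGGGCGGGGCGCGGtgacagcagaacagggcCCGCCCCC
E2f2: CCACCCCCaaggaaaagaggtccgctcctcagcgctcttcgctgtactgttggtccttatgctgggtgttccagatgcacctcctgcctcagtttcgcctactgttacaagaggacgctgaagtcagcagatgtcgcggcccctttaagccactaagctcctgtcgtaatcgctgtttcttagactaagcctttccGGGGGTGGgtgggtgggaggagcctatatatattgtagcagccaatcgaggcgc
Kit: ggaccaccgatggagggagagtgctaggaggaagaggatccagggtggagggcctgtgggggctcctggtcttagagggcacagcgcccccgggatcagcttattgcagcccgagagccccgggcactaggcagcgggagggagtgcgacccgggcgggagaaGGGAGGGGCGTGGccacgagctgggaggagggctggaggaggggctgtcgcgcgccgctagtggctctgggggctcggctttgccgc
The Alas2 window held 1 AGATAA match, on the opposite strand 86 bases before the start, and 4 CCNCNCCC matches, of which the first 3 overlap. Tmod1 had 4 CCNCNCCC matches, some of them overlapping, E2f2 2 and Kit 2, and none of these 3 held AGATAA. Over 27025 promoters of this length, 10.3% held AGATAA and 45.6% CCNCNCCC. Among the 12510 tested genes with a window the shares were 6.6% and 61.1%. Genes at the basophilic level that rise with stage held them in 4.3% and 66.0% of 47 windows, those between both levels in 12% and 64.1% of 92, and those at the proerythroblast level in 6.3% and 63.1% of 1878. For genes that fall with stage the shares were 7.4% and 65.3% of 202 at the basophilic level, 6.0% and 58.7% of 218 between both levels and 5.9% and 59.4% of 1567 at the proerythroblast level. These are counts of letters and no measure of binding.

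Much of the machinery that dismantles the maturing cell was also short of the basophilic level. Ube2o, a ubiquitin ligase that removes ribosomal and other proteins, read 9.65, 9.64 and 9.83 in deficient proerythroblast arrays and 11.45, 12.30 and 11.89 in adequate basophilic cells, from a mean of 8.31, a difference of -2.17 (SE 0.27, adjusted p = 0.000251). Ube2h, a ubiquitin-conjugating enzyme, read 9.08, 9.32 and 9.44 against 11.13, 11.82 and 11.46 and differed by -2.19 (adjusted p = 0.000142). Xpo7, a nuclear exportin needed for chromatin condensation, differed by -1.62 (adjusted p = 0.000747). The groups did not overlap for any of them, and all 3 were between both levels.

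Bnip3l, the mitochondrial receptor that marks mitochondria for autophagy, read 9.34, 9.05 and 9.40 against 10.72, 10.97 and 10.71. Its difference from the basophilic level was -1.54 (SE 0.14, adjusted p = 6.67e-05). Adequate proerythroblasts read 8.76, 8.75 and 8.82, under every deficient array. The diet difference of 0.49 (interval 0.19 to 0.79) was not called (adjusted p = 0.0783). By the rule Bnip3l was therefore placed at the proerythroblast level, which held in 17 of 23 alternatives. Map1lc3b, the LC3 protein of autophagosomes, was also placed at the proerythroblast level (-1.19, adjusted p = 0.00017). Trim58, a ubiquitin ligase of enucleation, differed by -1.88 (adjusted p = 0.00018) and could not be placed. Of the 24 tested genes of autophagy, ubiquitin and enucleation, 14 were lower and 4 higher, with a median of -0.72. The higher ones were Atg5, of autophagosome formation, Fundc1, a mitophagy receptor, Rac2, a small GTPase, and the histone deacetylase Hdac2, all of which fall with stage. No member was at the basophilic level, 6 were between and 8 at the proerythroblast level.

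Iron genes were called in both directions. By definition, a stage gene short of the basophilic level is higher if it falls with stage and lower if it rises. Tfrc, the transferrin receptor, read 10.47, 10.53 and 10.64 in deficient proerythroblast arrays and 10.92, 10.44 and 10.82 in adequate basophilic cells, and the arrays overlapped. The difference was -0.18 (interval -0.68 to 0.32, adjusted p = 0.52) after a mean of 9.58 in adequate proerythroblasts, which put Tfrc at the basophilic level. Ncoa4, the cargo receptor for ferritin degradation, had covered part of the way, at 9.51, 9.5 and 9.82 against 10.92, 11.68 and 11.27 (-1.68, adjusted p = 0.000269). Iscu, the scaffold for iron-sulfur clusters, was at the proerythroblast level, with a difference of -1.15. Aco1, the iron regulatory protein, the iron-sensing ubiquitin ligase subunit Fbxl5 and the mitoferrin Slc25a28 fall with stage and were still high, by 1.07, 0.93 and 1.22 (adjusted p = 0.00127, 0.000395 and 0.00225). Of 20 tested iron genes, 6 (30%) were higher and 2 (10%) lower, beside 19.2% and 16.9% over all genes. At the basophilic level were 4: Tfrc, Tfr2, Steap3 and Ftl1. Tfrc was called lower without replicate 2 of both basophilic groups (adjusted p = 0.0377, in a range of 0.0377 to 0.798).

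The genes at the basophilic level with the largest stage effects included both risers and fallers. E2f2, the E2F factor of terminal erythroid divisions, read 10.84, 11.20 and 10.95 against 11.35, 11.37 and 11.43, from a mean of 9.10. Its arrays did not overlap and the difference of -0.39 (interval -0.69 to -0.08) missed the threshold narrowly, with an adjusted p of 0.0502. It stayed uncalled under 12 of 23 alternatives, and was called without deficient proerythroblast replicate 2 and with the replicate block (adjusted p = 0.0457), with adjusted p from 0.014 to 0.150, so E2f2 was at or just short of the basophilic level. Rragd, a Rag GTPase of the mTORC1 pathway, was closer: it read 8.62, 8.23 and 8.69 against 8.48, 8.41 and 8.99, from 6.29, and the arrays were mixed (-0.11, interval -0.74 to 0.52). Cpeb4, a translational regulator induced in terminal erythropoiesis, and Slc6a9, the glycine transporter that feeds heme synthesis, differed by -0.25 (-0.72 to 0.22) and -0.24 (-0.65 to 0.16). The linker histone H1f2 read 11.78, 11.14 and 11.50 against 12.19, 11.02 and 11.38 (-0.06, -0.94 to 0.83), an interval nearly as wide as the margin. The placement of H1f2 held in 12 of 23 alternatives. Without replicate 2 of both basophilic groups Cpeb4 (adjusted p = 0.00937) and Slc6a9 (0.00438) were called lower in deficient proerythroblasts. Over all alternatives their adjusted p ranged from 0.00937 to 0.564 and from 0.00438 to 0.557. With the features of a gene averaged, the Slc6a9 difference was 0.37 and uncalled.

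Among the genes that fall with stage, Gatm, the first enzyme of creatine synthesis, had left the proerythroblast level. It read 7.61, 6.32 and 6.79 in deficient proerythroblast arrays and 7.38, 6.66 and 7.03 in adequate basophilic cells, against 9.74 ± 0.18 (SD, n = 3) in adequate proerythroblasts. The arrays of the former groups were mixed, with a difference of -0.12 (interval -0.82 to 0.59, adjusted p = 0.777). Hsph1, a heat shock protein of the Hsp110 family, read 9.09, 8.17 and 8.46 against 8.37, 8.21 and 8.43, from 10.69, and also overlapped (0.24, -0.19 to 0.67). Mettl8, a mitochondrial tRNA methyltransferase, differed by -0.11 (-0.84 to 0.62). Itga5, the fibronectin receptor subunit, and Eng, the TGF-beta coreceptor endoglin, had covered most of their fall. Their arrays did not overlap, at 0.45 (adjusted p = 0.0552, and 0.0405 with the replicate block, in a range of 0.0193 to 0.185) and 0.43 (adjusted p = 0.0824).

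Between both levels, the 10 genes with the largest stage effects were Hbq1a, Hbq1b, Ube2o, Ube2h, Myb and Cdk6, already described, and Gch1, Apol11a, Apol11b and Prelid2. Gch1, the first enzyme of tetrahydrobiopterin synthesis, read 8.75, 8.51 and 8.83 against 10.81, 10.56 and 10.75, from a mean of 7.20, and differed from the basophilic level by -2.01 (SE 0.21, adjusted p = 0.000112). The apolipoprotein L genes Apol11a and Apol11b, similar in sequence, differed by -1.73 and -1.79. Prelid2 was the faller among these 4, 1.87 above the basophilic level (adjusted p = 6.02e-05) and with no overlap. All 10 kept their call in each of the 23 alternatives.

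Past the basophilic level, 6 of the 7 genes fall with stage. Sh2d4a, an SH2 domain adaptor, read 5.75, 5.32 and 5.23 in deficient proerythroblast arrays and 6.27, 6.16 and 6.07 in adequate basophilic cells, from 8.37 in adequate proerythroblasts. Every deficient array was under every adequate basophilic one (-0.73, adjusted p = 0.0196). Gpc4, a glypican of the cell surface, read 4.63, 4.86 and 5.01 against 5.70, 6.37 and 5.80 and had the largest overshoot, -1.12 (adjusted p = 0.00493), with all deficient arrays under the filter value. Aldh1a7 (-0.78), Fbxo10 (-0.60), Trmt1l (-0.50) and Pxmp2 (-0.43) completed the fallers, and Asprv1, a protease, was the riser (0.54, adjusted p = 0.0169). Of these 7, only the call of Gpc4 was kept in all alternatives. The other 6 calls were each lost without deficient proerythroblast replicate 3, among other arrays, with highest adjusted p of 0.0662 to 0.132. In the other direction Prkcq, the protein kinase C theta that falls with stage, had moved away from the basophilic level, at 7.14, 8.11 and 7.65 against 5.87, 5.96 and 6.20 and a mean of 6.73 in adequate proerythroblasts (1.62, adjusted p = 0.000493). This difference of Prkcq stayed called in all 23 alternatives, but its placement as moved away held in only 11 of them. The other two genes of that class carry names of predicted or unnamed genes.

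Ribosome biogenesis genes, in contrast to Kit and Myb, were mostly placed at the proerythroblast level by the rule. Of 36 tested ribosome biogenesis genes, 34 were higher in deficient proerythroblasts than in adequate basophilic cells and none was lower, with a median of 1.64 beside -0.07 over all genes. All but 3 of the 34 stage genes of this list lacked a called shift with diet: 25 were at the proerythroblast level, 3 between both levels and 6 not placed. Over all stage genes 5594 of 10910 were at the proerythroblast level. The list still leaned toward the basophilic side, with a median diet difference of -0.38 beside 0.02 over all genes and a stage median of -2.09. Without adequate basophilic replicate 2, 33 were higher, and 31 after quantile normalization. Pes1, a factor of the large subunit's assembly, read 10.35, 10.39 and 10.26 in deficient proerythroblast arrays and 8.14, 7.66 and 7.75 in adequate basophilic cells, against a mean of 10.57 in adequate proerythroblasts. The difference was 2.48 (SE 0.27, adjusted p = 0.000146), and the lowest deficient array was far above the highest basophilic one.

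Wdr43 and Utp4, components of the small subunit processome, were far above the basophilic level. Wdr43 read 9.37, 8.87 and 9.10 against 6.81, 6.63 and 6.92 (2.33, adjusted p = 0.000227), and Utp4 9.91, 9.77 and 9.77 against 6.94, 6.62 and 7.16 (2.91, adjusted p = 0.00014). Nolc1, a nucleolar chaperone of small nucleolar particles, and Mybbp1a, a nucleolar protein, were 2.25 and 2.17 higher. Gtpbp4 and Riok2, of the large and the small subunit, were both 2.55 higher. Wdr43 was placed at the proerythroblast level, which held in only 10 of 23 alternatives. The diet difference was called for Polr1b, the second largest subunit of RNA polymerase I, and Utp20, a processome scaffold. Polr1b read 8.75, 8.59 and 8.27 against 6.25, 6.28 and 6.52, from 9.28 (2.19, adjusted p = 3.47e-05). Utp20 read 7.53, 7.39 and 7.36 against 5.20, 5.23 and 5.40, from 8.01 (2.15, adjusted p = 6.15e-06). Both were placed between both levels, much nearer to the proerythroblast side. The call does not set Polr1b and Utp20 apart from the other genes in size. The diet difference of Bop1, another ribosome biogenesis gene, was -0.79 but not called (adjusted p = 0.0775), and Bop1 was not placed.

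Many metabolic genes that fall with stage were also still high. Of 30 tested genes of oxidative phosphorylation 16 (53.3%) were higher, none lower and 14 not called (median 0.73), beside 19.2% higher over all genes. None was placed at the basophilic level or between both levels. Of the 24 that fall with stage 13 were at the proerythroblast level, beside 5594 of 10910 over all stage genes, and 11 were not placed. The subunit Ndufb5 of complex I read 8.05, 7.67 and 7.81 against 6.87, 6.20 and 6.92 (1.18, adjusted p = 0.00123), and Atp5a1 of the ATP synthase 11.08, 10.95 and 11.01 against 10.37, 10.02 and 10.28 (0.79, adjusted p = 0.00413). Neither gene's groups overlapped, and adequate basophilic replicate 2 was the lowest array of both. Without that array, 5 of the 30 were called higher, and without replicate 2 of both basophilic groups 20.

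Glycolysis genes were called in both directions. Of 17 tested genes 11 (64.7%) were higher and 2 (11.8%) lower in deficient proerythroblasts, beside 19.2% and 16.9% over all genes, with a median of 0.87. Tpi1, triose phosphate isomerase, read 10.20, 9.98 and 9.98 against 8.86, 8.32 and 8.76, from 10.82, and was between both levels (1.41, adjusted p = 0.00023). Ldha, which makes lactate, averaged 8.40 against 7.11 and was at the proerythroblast level. Pgam1, a mutase of the lower pathway, was higher in deficient proerythroblasts (10.03) than in either adequate group (9.24 and 8.25), though its difference from adequate proerythroblasts was not called (adjusted p = 0.0817). The 2 lower genes rise with stage: Bpgm, which makes the bisphosphoglycerate of red cells, read 8.45, 8.31 and 8.54 against 10, 10.65 and 10.36 (-1.90, adjusted p = 6.93e-05), and the lactate transporter Slc16a1 differed by -1.16. Of 19 tested cholesterol synthesis genes, 6 (31.6%) were higher and none lower (median 0.49). Hsd17b7 was the furthest apart of those named, at 7.66 against 6.38 (1.27, adjusted p = 0.0109), and without adequate basophilic replicate 2 only 1 member of the list was called.

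**Figure D3:**
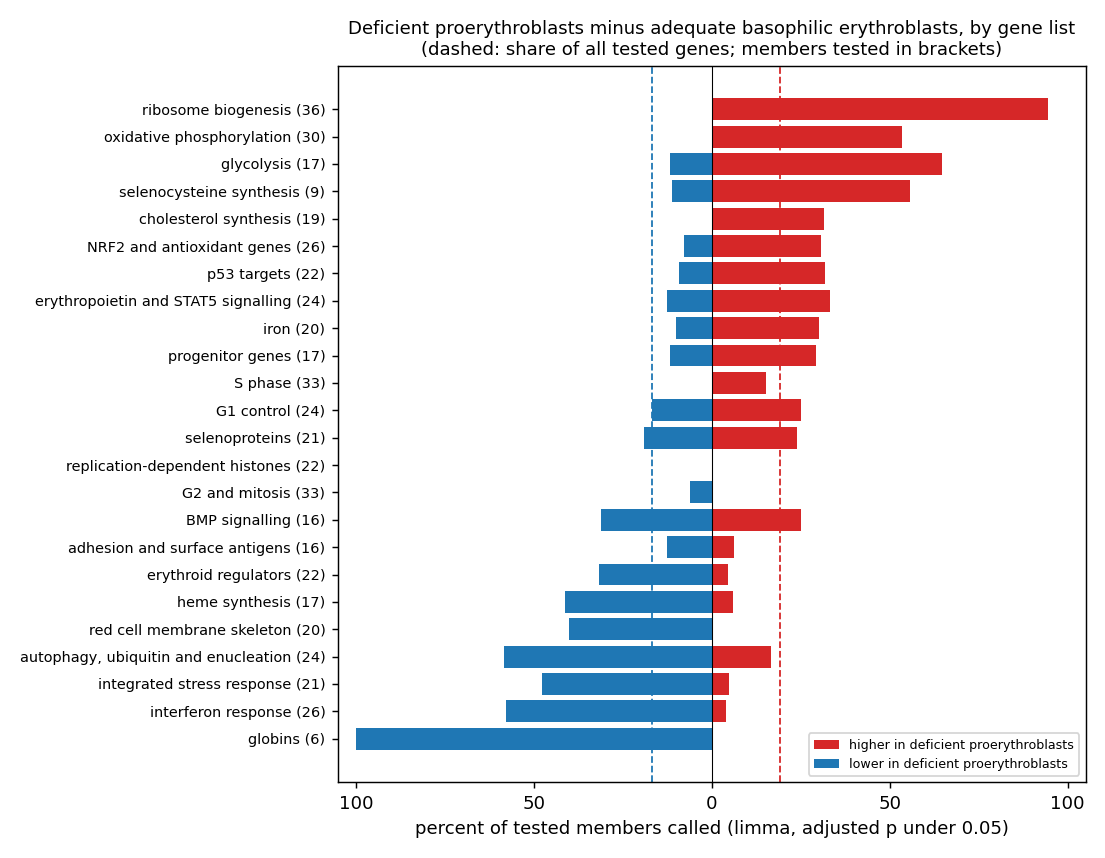
Percent of tested members of each gene list (number tested in brackets) that were higher (red, to the right) or lower (blue, to the left) in deficient proerythroblasts than in adequate basophilic erythroblasts. Dashed lines mark the shares over all tested genes, 19.2% higher and 16.9% lower. Ribosome biogenesis reaches furthest to the right with 34 of 36 members, and globins furthest to the left with 6 of 6.

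Cell cycle genes of the S, G2 and M phases hardly separated the groups. Of 33 tested S phase genes 5 were higher and none lower (median 0.58), and of 33 genes of G2 and mitosis none was higher and 2 lower (median -0.01). The 5 were Rfc3, Cdt1, Mcm10, Pole and Dut, a share under the 19.2% called higher over all genes. Rfc3, of the clamp loader, read 8.31, 7.74 and 8.05 against 7.13, 6.55 and 6.92 (1.17, adjusted p = 0.00371), and the arrays did not overlap. Nusap1, a spindle protein, and Ube2c, the ubiquitin-conjugating enzyme of the anaphase promoting complex, rise with stage and differed by -1.12 and -0.81. Adequate basophilic replicate 2 was the lowest array of its group for Rfc3, Cdt1, Mcm10 and Pole, and the differences of the last 3 were 0.78, 0.88 and 1.00. It was the lowest for Dut too. Without that array the calls of Cdt1, Mcm10, Pole and Dut were lost, with adjusted p of 0.0659, 0.144, 0.190 and 0.107. Over the alternatives their adjusted p ran from 0.00682 to 0.101, 0.00109 to 0.165, 0.00303 to 0.190 and 0.00933 to 0.298. The counts moved with it: 1 S phase gene without that array, and 15 without replicate 2 of both basophilic groups, where 17 of the G2 and mitosis genes were lower. None of 22 tested replication-dependent histones was called by limma, and none had an unadjusted p under 0.05, with a median of 0.04. Without replicate 2 of both basophilic groups 5 were lower. Their feature signals can be shared between near-identical copies.

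Several genes of G1 control were far apart. Ccnd2, cyclin D2, read 9.82, 9.33 and 9.87 in deficient proerythroblast arrays and 6.68, 6.61 and 6.93 in adequate basophilic cells, against 9.28 ± 0.22 (SD, n = 3) in adequate proerythroblasts. It was 2.93 higher (SE 0.28, adjusted p = 8.23e-05) with wide separation. E2f3, an activating E2F, was still at the proerythroblast level, 1.53 above the basophilic one. The inhibitor Cdkn1b, p27, rises with stage and read 7.13, 7.20 and 7.23 against 8.54, 8.47 and 8.87 (-1.44, adjusted p = 0.000165). Gadd45a, a growth arrest gene, was between both levels, at 9.85 against 11.08, a placement that held in 14 of 23 alternatives. Of 24 tested G1 genes 6 (25%) were higher and 4 (16.7%) lower, shares near the 19.2% and 16.9% over all genes, the others of the 4 being Cdkn2d, the p19 inhibitor, and the phosphatase Cdc25b, both between both levels.

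Cdkn1a, the p21 inhibitor and a p53 target, followed neither stage. It read 10.43, 8.16 and 9.72 in deficient proerythroblasts, 7.65, 6.87 and 7.66 in adequate basophilic cells and 6.67, 6.59 and 6.76 in adequate proerythroblasts. Every deficient array was above every array of both adequate groups, and the deficient arrays were widely spread. The difference from adequate basophilic cells was 2.04 (SE 0.57, adjusted p = 0.0211) and that from adequate proerythroblasts 2.76 (adjusted p = 0.0178), while the difference between the adequate stages missed the threshold (adjusted p = 0.284). The first call was lost without adequate basophilic replicate 2 or deficient proerythroblast replicate 1 or 3, with adjusted p from 0.0016 to 0.0847 over the alternatives. Of 22 tested p53 targets 7 (31.8%) were higher and 2 (9.1%) lower, beside 19.2% and 16.9% over all genes. The lower ones were Bbc3 and Sesn2, which rise with stage. Without adequate basophilic replicate 2 the counts were 5 and 2. Ccng1, cyclin G1, and Ei24 fall with stage and were 1.49 and 1.42 higher, at the proerythroblast level. Eda2r, a death domain receptor, was dim (5.47 against 4.75).

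Erythropoietin and STAT5 signalling was mixed. Epor, the erythropoietin receptor, read 10.01, 10.07 and 9.90 in deficient proerythroblast arrays and 10.88, 10.35 and 10.76 in adequate basophilic cells, lower without overlap (-0.67, adjusted p = 0.041). That call was lost when any single proerythroblast array, or adequate basophilic replicate 1 or 3, was left out. It was kept in 14 of 23 alternatives, with adjusted p from 0.000344 to 0.117. Stat5b, a transducer of the receptor, and Podxl, a sialomucin of stress erythroid cells, fall with stage and were 1.07 and 2.58 higher (adjusted p = 0.00077 and 8.6e-05). Cbl, a ubiquitin ligase that ends receptor signalling, was 1.85 higher, with adequate basophilic replicate 2 at the low end of 8.74, 6.90 and 8.14. Bcl2l1, the survival protein Bcl-xL, rises with stage and read 9.12, 8.94 and 9.26 against 10.51, 10.90 and 10.74, between both levels (-1.61, adjusted p = 0.000127). Of 24 tested members 8 (33.3%) were higher and 3 (12.5%) lower, beside 19.2% and 16.9% over all genes. The last of the lower ones was Socs3, a feedback inhibitor. Without adequate basophilic replicate 2 the counts were 4 and 2.

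Surface antigens and BMP signalling had called genes in both directions. Cd44, the adhesion molecule used to stage erythroblasts, was still at the proerythroblast level, at 8.32, 8.29 and 8.29 against 6.72, 6.81 and 6.33 and a mean of 8.23 in adequate proerythroblasts (1.68, SE 0.19, adjusted p = 0.000167). Cd36, a fatty acid and thrombospondin receptor, rises with stage and read 8.39, 8.07 and 8.46 against 10.57, 11.37 and 10.89 (-2.64, adjusted p = 0.000125). The integrin subunit Itga4 was no stage gene and did not separate the groups (-0.32, interval -1.04 to 0.40). Of 16 tested adhesion genes 1 (6.2%) was higher, Cd44, and 2 (12.5%) were lower, Cd36 and Bcam, the Lutheran antigen. Both shares were under the 19.2% higher and 16.9% lower over all genes. At the basophilic level were 4, Itga5, Tfrc, Cd24a and Cd59a. The Bcam call was lost without adequate basophilic replicate 2 (adjusted p = 0.126) and kept in 14 of 23 alternatives, with adjusted p from 0.00125 to 0.126. BMP signalling drives stress erythropoiesis in the spleen, and of its 16 tested genes 4 (25%) were higher and 5 (31.2%) lower. The receptor Bmpr2 (1.38), the Hedgehog receptor Ptch1 (1.02) and the mediators Smad4 (0.65) and Smad5 (0.61) were higher. The call of Smad4 was lost without deficient proerythroblast replicate 3, and that of Smad5 without adequate basophilic replicate 2 or deficient proerythroblast replicate 2 or 3, with highest adjusted p of 0.0549 and 0.0644. The 5 lower genes, Bmp4, Acvr2b, Smad6, Id3 and Gli1, were dim, with basophilic means from 5.71 to 7.10, and without adequate basophilic replicate 2 none of the 5 was called.

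Part of the integrated stress response was still low. Of 21 tested genes of this list 14 rise with stage, 10 were lower and 1 higher, with a median of -0.40. Eif2ak1, the heme-regulated kinase that starts this response in red cells, read 11.03, 10.79 and 11.01 against 11.90, 11.70 and 11.99, from 10.06, and was between both levels (-0.92, adjusted p = 0.000645). Ppp1r15a, the phosphatase subunit that ends it, read 10.66, 10.65 and 10.66 against 11.75, 11.35 and 11.81, also between (-0.98, adjusted p = 0.00121). Chac1, a glutathione-degrading target, was at the proerythroblast level, at 6.14, 6.06 and 6.18 against a spread of 9.01, 7.33 and 7.81 (-1.92). Slc7a5, the large amino acid transporter, differed by -1.07 and was not placed. Phgdh, the first enzyme of serine synthesis, falls with stage and was the higher member (0.98). Mthfd2 and Aldh18a1, enzymes of folate and proline metabolism, and the stress protein Nupr1 were at the basophilic level. Aldh18a1 missed the threshold narrowly and its arrays did not overlap (0.45, interval 0.08 to 0.81, adjusted p = 0.0543), so it was at or just short of that level.

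Of 21 tested selenoprotein genes 5 (23.8%) were higher and 4 (19%) lower, near the 19.2% and 16.9% over all tested genes. Of the 11 stage genes among them 7 were at the proerythroblast level, beside 5594 of 10910 over all stage genes. Gpx1, the glutathione peroxidase most sensitive to selenium supply, read 12.67, 12.12 and 12.62 in deficient proerythroblast arrays and 13.25, 13.52 and 13.36 in adequate basophilic cells, lower in every array (-0.91, SE 0.16, adjusted p = 0.00219). Its mean in adequate proerythroblasts was 12.86, and the difference between proerythroblasts of both diets was not called (adjusted p = 0.287). Txnrd2, the mitochondrial thioredoxin reductase, differed by -1.23 and was also at the proerythroblast level. Selenos, of the endoplasmic reticulum, read 8.36, 8.23 and 8.53 against 6.48, 6.11 and 6.56 and was 1.99 higher (adjusted p = 0.000645). Selenoi, a phospholipid enzyme, and Sephs2, which makes selenophosphate, were 1.04 and 1.09 higher. Txnrd1, the cytosolic thioredoxin reductase, was no stage gene and read 9.87, 10.11 and 9.79 against 8.67, 7.93 and 8.72 and a mean of 9.12 in adequate proerythroblasts (1.48, adjusted p = 0.0155). Every deficient array was above every adequate basophilic one. The other higher gene was Selenoh, the other lower ones Selenok and the dim Selenom, and Selenow was at the basophilic level. For the machinery of selenocysteine synthesis, 5 of 9 tested genes were higher and 1 lower, the seryl-tRNA synthetase Sars. The elongation factor Eefsec (0.84), the tRNA-associated Trnau1ap (0.61), the kinase Pstk (0.57), the SECIS-binding Secisbp2 (0.71) and the synthase Sepsecs (0.81) fall with stage, and Pstk alone of these was between both levels. The calls of Secisbp2 and Sepsecs were lost without adequate basophilic replicate 2 (adjusted p = 0.0519 and 0.130), among other arrays, and that of Pstk without deficient proerythroblast replicate 1 or 3. Their adjusted p ran from 0.000307 to 0.130 for Secisbp2, 0.0137 to 0.183 for Sepsecs and 0.00191 to 0.0647 for Pstk.

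Of 26 tested NRF2 and antioxidant genes 8 (30.8%) were higher and 2 (7.7%) lower (median 0.33), beside 19.2% and 16.9% over all genes. Gsto1 and Abcc1, of glutathione transfer and export, were 0.74 and 0.69 higher and at the proerythroblast level. Pgd, of the pentose phosphate pathway, was between both levels (0.58, adjusted p = 0.0048), a placement that held in 14 of 23 alternatives. Gss, glutathione synthetase, was no stage gene (0.69). Cat, catalase, moves the other way: it rises with stage and read 10.89, 10.65 and 11.11 against 12.22, 12.88 and 12.56 (-1.67, adjusted p = 0.000269). The other lower gene was Taldo1, transaldolase, and Nqo1, Prdx2 and Srxn1 were at the basophilic level. The call of Gss was lost without adequate basophilic replicate 2 (adjusted p = 0.0631, in a range of 0.0052 to 0.0817). Without adequate basophilic replicate 2 the list had 4 higher and 2 lower.

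Most interferon response genes that were called were still low. Of 26 tested, 15 were lower in deficient proerythroblasts and 1 was higher, with a median of -0.56. Isg15, a ubiquitin-like modifier, read 5.90, 5.93 and 6.10 in deficient proerythroblast arrays and 9.35, 9.64 and 9.13 in adequate basophilic cells, the former beside the adequate proerythroblast mean of 5.74. It differed by -3.40 (SE 0.47, adjusted p = 0.000537). Rsad2, viperin, read 9.74, 9.47 and 10.07 against 12.14, 12.54 and 12.19 (-2.53, adjusted p = 7.05e-05), and Oas3, a sensor of double-stranded RNA, 7.61, 7.13 and 7.68 against 10, 10.50 and 9.78 (-2.62, adjusted p = 0.000657). Ifit1, which binds foreign RNA caps, was at 5.35, 5.18 and 5.64 against 7.09, 7.92 and 7.13 (-1.99). In each of these 4 the groups were far apart. Ifit2, of the same family, went the other way, at 7.35 against 5.97 (1.38, adjusted p = 0.000321). Without adequate basophilic replicate 2, 11 were lower and 1 higher. Macrophage markers, which share this tissue, had summed levels of 10.09 to 10.97 in deficient proerythroblasts and 10.35 to 10.96 in adequate basophilic cells, ranges that overlapped.

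**Figure D4:**
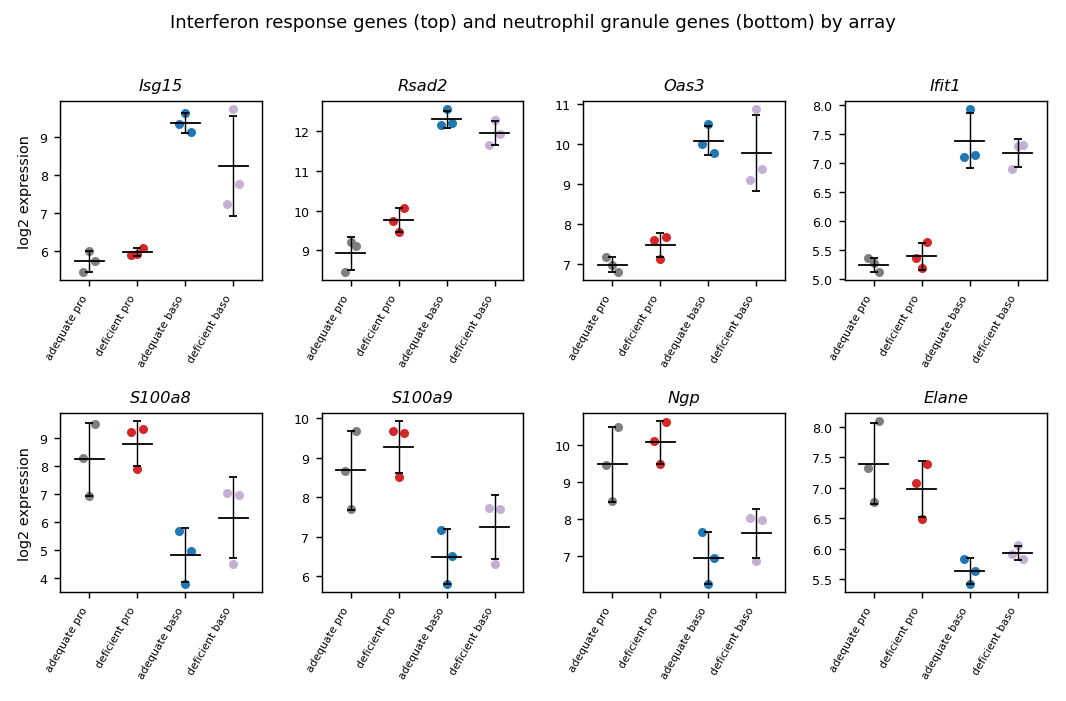
log2 expression (vertical axis, scaled per gene) of interferon response genes (top) and neutrophil granule genes (bottom) in each array of the 4 groups, with means and SD (n = 3). The red deficient proerythroblast points of Isg15 (5.90 to 6.10) lie far under the blue adequate basophilic points (9.13 to 9.64), and those of S100a8 (7.87 to 9.31) far above (3.78 to 5.68).

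The highest difference of all named genes was that of a neutrophil gene. S100a8, a calcium-binding protein of neutrophils, read 9.20, 7.87 and 9.31 in deficient proerythroblasts, 5.68, 3.78 and 4.97 in adequate basophilic cells and 8.27, 6.92 and 9.5 in adequate proerythroblasts. It was 3.98 higher (SE 0.79, adjusted p = 0.00389) without overlap, and both proerythroblast groups were widely spread. Adequate basophilic replicate 2, at 3.78, was under that array's background median of 4.19, and the basophilic mean of 4.81 was under the filter value, so the size of this difference is not well measured. Ngp, neutrophilic granule protein, was 3.14 higher (adjusted p = 0.00146), its partner in the list S100a9 2.77, and the granule enzymes Mpo and Elane 1.73 and 1.35 (adjusted p = 0.00494 and 0.00762). Of 18 tested neutrophil markers 9 were higher and none lower, with a median of 0.81, and deficient proerythroblast replicate 2 was the lowest of its group for S100a8, S100a9, Ngp, Mpo and Elane. The summed level of these markers moved with the groups as given above, and its part in the other differences was not tested.

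Among the remaining 8 highest, Ccnd2 and Utp4 have been described, and small RNA genes stood out. Snord87, Snord92 and Snord16a, small nucleolar RNAs that guide ribosomal RNA methylation, were 2.85, 2.99 and 3.51 higher (adjusted p = 0.000231, 0.000663 and 0.0158). Snord16a had 8.33, 4.45 and 7.57 in the adequate basophilic arrays, with replicate 2 far under the others, and its difference was 2.35 without that array. The feature of the microRNA gene Mir677 differed by 3.05. Scai, a suppressor of cell invasion, read 8.78, 9.07 and 9.37 against 6.33, 5.88 and 6.36 (2.88, adjusted p = 0.0138) and was above both adequate groups, with a mean of 7.21 in adequate proerythroblasts. That call was lost without adequate basophilic replicate 2 or deficient proerythroblast replicate 3, with adjusted p from 1.88e-05 to 0.0521. Trgc3, a T cell receptor gamma segment, read 9.23, 6.64 and 8.86 against 4.85, 4.65 and 4.69 (3.51), with replicate 2 low among the deficient arrays. The basophilic means of Trgc3, Snord87, Snord92 and Mir677 were also under the filter value of 5.30, so the size of these differences is not well measured either.

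Of the 10 lowest differences, Cd36, Isg15, Oas3 and Rsad2 have been given. The pseudogene Cyp4b1-ps2 had the largest, at 6.48, 5.48 and 6.76 against 9.25, 10.32 and 9.63 (-3.49, SE 0.42, adjusted p = 0.000207). Chac2, a glutathione-degrading enzyme related to Chac1, was at the proerythroblast level, with a difference of -2.45. Tcp11l2 (-2.57), Fam220a (-2.45) and Plaat3 (-2.41), a phospholipase, rise with stage and were not placed. Calcrl, a receptor for calcitonin-related peptides, differed by -2.48, with adequate basophilic replicate 2 the highest of 6.81, 8.91 and 7.26, and the call was lost without it (adjusted p = 0.0825) and without deficient proerythroblast replicate 2 or 3. Its adjusted p over 23 alternatives ran from 5.27e-05 to 0.0825.

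**Figure D5:**
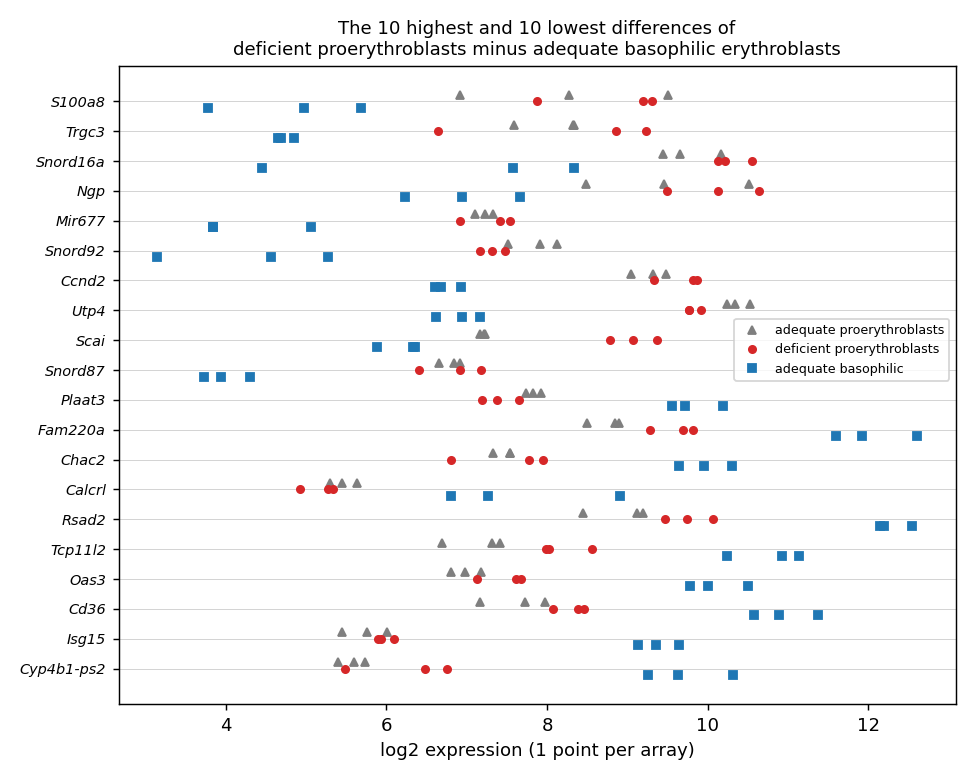
log2 expression (horizontal axis) in each array for the 10 highest and 10 lowest differences between deficient proerythroblasts (red circles) and adequate basophilic erythroblasts (blue squares), with adequate proerythroblasts (grey triangles) for reference. Red and blue points never overlap because the rule for naming these genes required it, and for Isg15, Snord87 and Ngp the red points fall among or beside the grey ones.

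Few markers of the other cell types were called. Of 16 tested macrophage markers 2 were lower, of 8 megakaryocyte markers 2, of 12 T and NK cell markers 1 and of 8 stroma and endothelium markers 1, and none of these was higher. No member of the 11 B cell or 5 mast cell and basophilic granulocyte markers was called by limma, and 1 of each had an unadjusted p under 0.05. The 2 macrophage markers were Marco and C1qc and the 2 megakaryocyte markers Gp9 and Vwf. Gp9 averaged 7.52 against 8.36, Vwf 6.74 against 7.26, Marco 6.11 against 6.67, Ncr1 5.17 against 5.69 and Col1a1 6.79 against 7.35, while the background was higher in the basophilic arrays. Without adequate basophilic replicate 2 the calls of Marco (adjusted p = 0.177), C1qc (0.151), Ncr1 (0.0662) and Col1a1 (0.138) were lost. Over the alternatives their adjusted p ran from 0.00628 to 0.177, 0.0175 to 0.153, 0.00295 to 0.0814 and 0.000674 to 0.138. Without replicate 2 of both basophilic groups, 7 of the 8 stroma and endothelium markers were lower.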

How the data were processed

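Expression was measured on 12 Affymetrix whole-transcript arrays in 4 groups of 3. Values are on the log2 scale and were used as the authors deposited them; Expression Console is the software in the submitters' processing notes, and its version, the normalization and the annotation build were not given in the sources used here. Of 72688 features, 6732 array controls were left out of the tests, 31258 were paired with 1 gene symbol by the platform annotation, 1492 with several and 33206 with none, and 1199 symbols were updated. Where a gene had several features (441 genes) the one with the highest mean was used. Genes above 5.30 in at least 3 arrays, 20128 of 30702, entered limma 3.58.1 (R 4.3.3) with 1 mean for each of the 4 groups and all 12 arrays sharing the variance. Benjamini-Hochberg adjusted p-values over all tested genes were called at 0.05. Intervals are 95% intervals of that fit. A stage gene was placed at the adequate proerythroblast level when the diet difference was not called and its interval lay within 1 of 0, while the difference from adequate basophilic cells was called. Same-numbered proerythroblast arrays of both diets deviated together (r = 0.46, 0.18 and 0.52), which pairs them by number, from the data and not the labels; the fit has no block, and blocked values of the diet comparison stand beside it. The script was tested on simulated data. The number of arrays limits the precision.

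Named were the 10 highest and 10 lowest differences among called genes whose arrays did not overlap, up to 5 members per gene list with the smallest adjusted p, the 10 stage genes per class with the largest stage effect, and textbook stage genes; symbols of predicted genes were left out of the first and the third. Mycn, Sox4, Bcl11a, Atg5, Fundc1, Rac2, Hdac2, Tfr2, Steap3, Ftl1, Bop1, Cdkn2d, Cdc25b, Sesn2, Socs3, Bmp4, Acvr2b, Id3, Gli1, Cd24a, Cd59a, Mthfd2, Aldh18a1, Nupr1, Txnrd1, Selenoh, Selenok, Selenom, Selenow, Sars, Taldo1, Nqo1, Prdx2 and Srxn1 fall outside this rule and were chosen after their values were seen. The compared groups and the gene lists were chosen with earlier results of these data known. Promoters are those of RefSeq for GRCm38.p6. Alternatives covered the filter, normalization, variance model, arrays in the fit, feature rule, threshold, margin and each array left out in turn.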

Additional observations from a re-analysis of the deposited data

How the results depend on the processing

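No called value reversed under any of the 23 alternatives; the uncalled differences of Gatm, H1f2, H3c3, Hdc, Hsph1, Mettl8, Rragd and Slc6a9 changed sign under at least 1. Of 157 called named genes 117 kept their call in every one. The 7258 genes that differed between deficient proerythroblasts and adequate basophilic cells became 4464 after quantile normalization, 11976 with array weights, 10970 with the arrays of the compared groups only, 11930 without replicate 2 of both basophilic groups and 11109 at an adjusted p of 0.1; 3742 of the 7258 were still called after quantile normalization and 7156 without replicate 2 of both basophilic groups. Leaving out 1 array gave 2923 to 12921. The counts were 2923 without adequate basophilic replicate 2, 3749 without its replicate 3, 3319, 4129 and 2949 without deficient proerythroblast replicates 1, 2 and 3, and 12921 without deficient basophilic replicate 2. The 10910 adequate stage genes became 6579 after quantile normalization and 5613 to 14336 with 1 array left out. The 313 genes at the basophilic level became 2101 with array weights, 536 with the compared groups only, 1006 without replicate 2 of both basophilic groups (255 of the 313 among them) and 185 with a margin of 0.58, and 119 to 624 with 1 array left out. The 390 genes between both levels became 2809, 710 and 1439 (384 of the 390 among them) under the first 3 of these and 646 at an adjusted p of 0.1, and 124 to 829 with 1 array left out. The 5594 genes at the adequate proerythroblast level became 3208 after quantile normalization, 10102 with the compared groups only, 8981 without replicate 2 of both basophilic groups, 3637 with the narrower margin and 8651 at an adjusted p of 0.1, and 2036 to 10438 with 1 array left out. The 7 genes past the basophilic level became 12 with median centring, 57, 39 and 55 with array weights, compared groups only and without replicate 2 of both basophilic groups, 17 with a replicate block and 32 at an adjusted p of 0.1, and 1 to 42 with 1 array left out. The cause of these shifts was not tested. Without deficient basophilic replicate 3, whose labels conflict, 8002 genes differed. Same-numbered arrays of the compared groups correlated at 0.02 to 0.28 in their deviations from the group means, 2 of 3 pairs were over 0.1, and 4 of 6 arrays correlated best with their own number, so the numbers were not taken to pair these groups. With the replicate number as a block, 9653 genes differed, 7251 of the 7258 among them, and 386 genes were at the basophilic level, 563 between both levels and 7711 at the adequate proerythroblast level. With the block the calls in 5 lists moved by more than 1.5 times, to 14 S phase, 25 oxidative phosphorylation, 10 cholesterol, 5 adhesion and 5 stroma genes. Dim genes near the background level limit what the arrays can show.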
